A study of Homo sapiens with 22 samples.

Results

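PC9 is an established human lung adenocarcinoma line whose growth depends on a mutant, constitutively active epidermal growth factor receptor (EGFR). The comparison described here set PC9-GR3 (GR3), a derivative from a study of resistance to EGFR inhibition, against parental PC9, both after 24 h with WZ4002, an irreversible inhibitor that binds mutant EGFR. Its members were chosen by label and comprised 4 of the 22 libraries of the series, 2 from GR3 cells with WZ4002 and 2 from parental cells with WZ4002. Side by side with them stand the vehicle-treated libraries of GR3 and of parental cells, and the WZ4002-treated libraries of PC9-GR2 (GR2), another derivative, and of WZ4002-tolerant PC9 cells, 2 libraries each. All of these cells share the PC9 background. The labels do not say whether GR3 is 1 clone or a pool, nor whether each group's libraries are separate cultures. The p-values therefore reflect library-to-library spread alone, and that spread may be technical. WZ4002 is labelled at 1 mM, and that unit is in doubt, since such inhibitors are usually given to cells at micromolar doses.

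EGFR signals mainly through the RAS, RAF, MEK and ERK cascade, which drives cyclin D and MYC and switches on its own feedback inhibitors, and through PI3K and AKT, which hold FOXO transcription factors outside the nucleus. Blocking the receptor in a dependent cell shuts off ERK target genes, stops entry into S phase, releases FOXO targets and raises the death protein BIM. Cells that tolerate the block are known to rely on other receptor kinases such as AXL, MET or FGFR1, on a loss of epithelial character, or on a weaker death response, and these gene groups order the account.

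Levels are given in CPM, which scales each gene's reads to a fixed library total. Differences are GR3 minus parental group means of log2(CPM + 1), given ± SE with 2 libraries per group. This scale understates the change of genes with low levels. A gene was called where limma gave an adjusted p under 0.05 over 15485 genes. The 4 libraries held 46.2 and 38.8 M reads for GR3 cells, against 32.7 and 48.2 M for parental cells (M, mega), as recovered from the CPM steps. All 8 epithelial markers were present, and their summed level was 5582 to 6581.7 CPM in GR3 cells and 7018.7 to 8198.5 CPM in parental cells. Of 6 leukocyte markers only CD14 was in the table, at 0.67 and 1.03 CPM in GR3 cells and 1.13 and 1.43 CPM in parental cells. The 3 of 5 endothelial markers in the table summed to 6.47 to 9.46 CPM in GR3 cells and 4.75 to 5.08 CPM in parental cells, and the 4 of 7 fibroblast markers to 9.09 to 15.05 CPM in GR3 cells and 7.76 to 11.69 CPM in parental cells. The 3 lung lineage markers summed to 1.75 to 2.65 CPM in GR3 cells and 4.76 to 26.54 CPM in parental cells. The lineage factor NKX2-1 had 1.08 and 1.70 CPM in GR3 cells and 0.43 and 0.19 CPM in parental cells, the surfactant gene SFTPB had 0.24 and 0.23 CPM in GR3 cells and 24.8 and 3.28 CPM in parental cells, and the protease NAPSA had 0.43 and 0.72 CPM in GR3 cells and 1.32 and 1.29 CPM in parental cells. SFTPB and NAPSA were lower and NKX2-1 higher in both GR3 libraries than in either parental library, and SFTPB differed widely between the parental libraries. On the third principal component the 4 GR3 libraries, with drug or vehicle, lay at 46.9 to 52.4, and the 4 parental libraries lay at -10.4 to 1.86.

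Under the same inhibitor GR3 and parental cells differed at 4596 genes, 29.7% of those tested. Of these, 2213 (14.3%) were higher and 2383 (15.4%) lower in GR3 cells, and 1507 (9.73%) also differed at least 2-fold. The shares of 14.3% and 15.4% are the background for the list counts under WZ4002 below. The difference over all genes had a median of 0.00957, on values already scaled to a fixed library total. In 9529 genes (61.5%) both GR3 libraries lay on the same side of both parental libraries. With 2 libraries against 2 that count is a description, since no permutation of the labels can reach a small p. Counts of this kind cannot tell fewer expressing cells from less RNA per cell.

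The 12 genes furthest below parental levels were GABRE, KRT13, PXDN, CEACAM6, BCAS1, TPPP3, CASP14, SEMA5B, KRT4, LAMA4, TPPP and KCP. GABRE, a subunit of GABA-A receptors, had 0.15 and 0.10 CPM in GR3 cells, against 153 and 109 CPM in parental cells (-6.85 ± 0.37, adjusted p = 7.41e-09). Those GR3 values rest on 7 and 4 reads, against 4992 and 5233 reads in parental cells. PXDN, a peroxidase that crosslinks basement membrane collagen, had 0.06 and 0.23 CPM in GR3 cells, against 114 and 126 CPM in parental cells (-6.72 ± 0.16, adjusted p = 1.79e-13), from 3 and 9 reads against 3726 and 6059. Both genes were thus close to silent in GR3 cells and well expressed in both parental libraries. KRT13, a keratin of stratified mucosa, had 16.9 and 18.9 CPM in GR3 cells, against 1489 and 2709.7 CPM in parental cells (-6.73 ± 0.26, adjusted p = 1.93e-10), a ratio of means of 117. CASP14, the caspase of cornifying skin, had 69.1 and 85.4 CPM in GR3 cells, against 1402 and 1808 CPM in parental cells (-4.36 ± 0.33, adjusted p = 2.08e-07). LAMA4, a laminin chain, had 21.6 and 10.6 CPM in GR3 cells, against 326 and 276 CPM in parental cells (-4.22 ± 0.24, adjusted p = 1.17e-08). By the rule that chose these 12 genes, both GR3 libraries lay below both parental libraries in each. The parental pair itself was uneven for CEACAM6, a cell adhesion glycoprotein, at 1563 and 504 CPM.

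The 12 genes furthest above parental levels were GLI2, COL5A1, CACNA1D, AXL, SH3BGRL, PLAGL1, SPOCK1, DUSP9, AADACL3, NELL2, OXTR and SLC7A5. GLI2, the main activating transcription factor of Hedgehog signalling, had 26.1 and 25.03 CPM in GR3 cells, against 0.03 and 0.23 CPM in parental cells (4.56 ± 0.36, adjusted p = 3.21e-07). The parental values rest on 1 and 11 reads, so the gene was close to silent there. CACNA1D, a voltage-gated calcium channel subunit, had 17.2 and 13 CPM in GR3 cells, against 0.03 and 0.06 CPM in parental cells (3.93 ± 0.16, adjusted p = 2.39e-10), from 793 and 505 reads against 1 and 3. DUSP9, a phosphatase that acts on ERK, had 14.8 and 26.6 CPM in GR3 cells, against 0.58 and 2.36 CPM in parental cells (3.18 ± 0.41, adjusted p = 3.56e-05). OXTR, the oxytocin receptor, had 10.6 and 58.7 CPM in GR3 cells, against 2.48 and 1.68 CPM in parental cells (3.11 ± 0.52, adjusted p = 0.000356), the widest spread within GR3 cells among the 12. The 24 genes were chosen on these 4 libraries as large called differences with groups that do not overlap. Leaving out 1 of the 4 libraries is therefore no separate test of them.

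**Figure D1:**
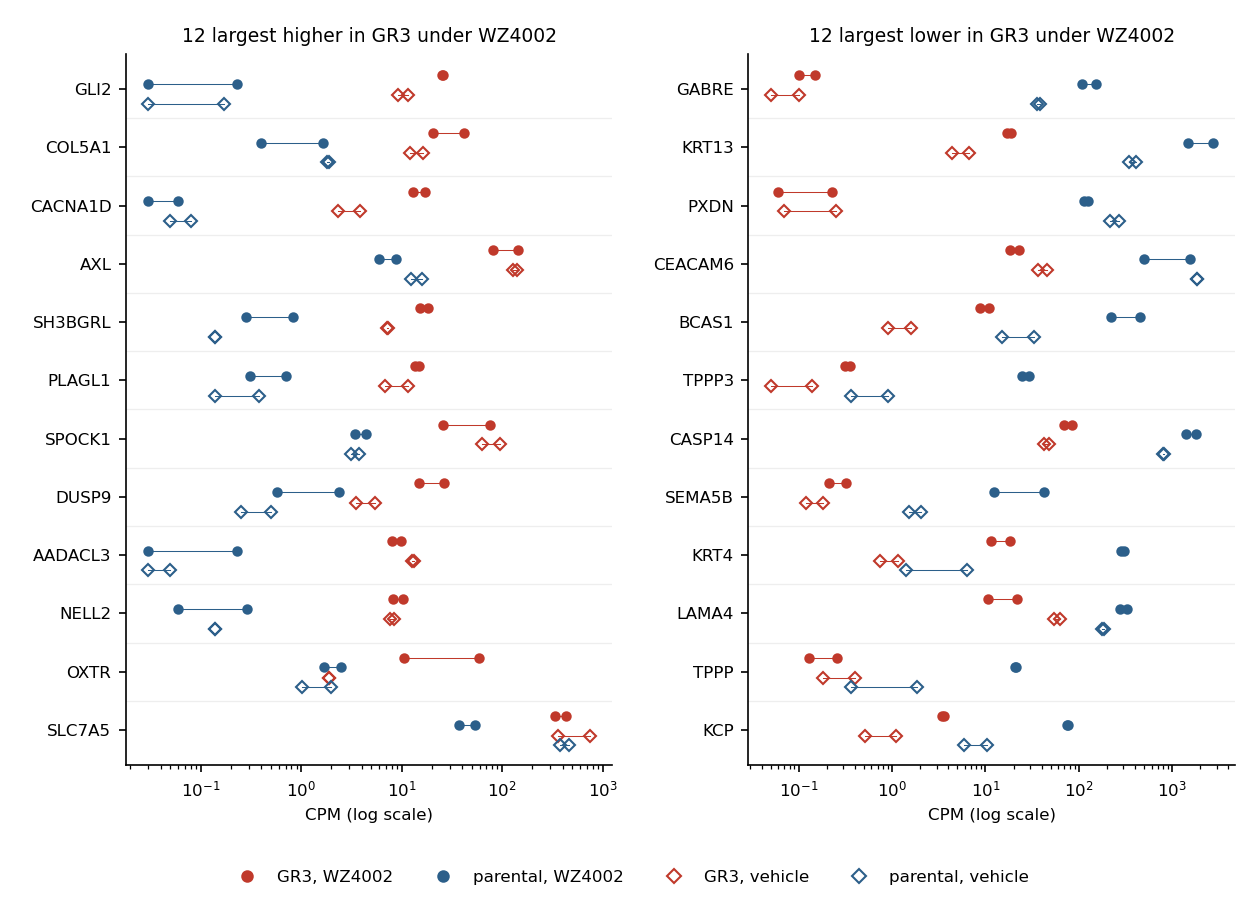
CPM (log axis) of the 12 genes furthest above (left) and below (right) parental levels under WZ4002, 1 point per library; filled circles are WZ4002 and open diamonds vehicle, red GR3 and blue parental, with a line joining the 2 libraries of a group. The rule that chose the 24 genes required groups that do not overlap under WZ4002. For SLC7A5, OXTR and TPPP the vehicle points of the 2 cell types meet or overlap.

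Keratins of stratified and squamous epithelium were lower in GR3 cells. Of 17 tested members of the keratin and squamous list, 12 were lower and 1 was higher, with a median of -1.41. KRT5, the basal keratin, had 41.1 and 27.1 CPM in GR3 cells, against 293 and 532 CPM in parental cells (-3.52 ± 0.33, adjusted p = 1.56e-06). KRT16, a keratin of activated epidermis, had 36.6 and 57.1 CPM in GR3 cells, against 251 and 436 CPM in parental cells (-2.83 ± 0.39, adjusted p = 7.68e-05). KRT6A had 0.65 and 0.77 CPM in GR3 cells, against 7.41 and 11.6 CPM in parental cells (-2.59 ± 0.22, adjusted p = 5.83e-07), a value that is uncertain because near-identical keratin genes can share its reads. The 3 genes separate the groups fully, with every GR3 library below every parental one. The member that was higher was SFN, the 14-3-3 sigma protein, with 124 and 137 CPM in GR3 cells, against 84.5 and 68.02 CPM in parental cells (0.77 ± 0.19, adjusted p = 0.00605), and without parental replicate 2 its difference was 0.62 (adjusted p = 0.06). Across the fits that each left out 1 library, 8 to 12 members were lower.

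Secretory glycoproteins moved the same way. Of 17 mucin and secretory genes 10 were lower and 0 higher, with a median of -1.05. CEACAM5, the carcinoembryonic antigen, had 0.50 and 0.49 CPM in GR3 cells, against 19.8 and 20.6 CPM in parental cells (-3.83 ± 0.38, adjusted p = 3.03e-06), and its reads may be shared with CEACAM6. MUC20, a membrane mucin, had 65.7 and 78.5 CPM in GR3 cells, against 529.8 and 669 CPM in parental cells (-3.03 ± 0.42, adjusted p = 6.74e-05). AGR2, a disulfide isomerase needed for mucin folding, had 29.1 and 12.9 CPM in GR3 cells, against 115 and 76.7 CPM in parental cells (-2.21 ± 0.41, adjusted p = 0.000889). Of 11 S100 calcium-binding proteins 5 were lower and 0 higher, with a median of -0.87. S100A9, an alarmin, had 20.2 and 8.37 CPM in GR3 cells, against 87.5 and 99.6 CPM in parental cells (-2.74 ± 0.43, adjusted p = 0.000204). S100A14 had 51.8 and 52.2 CPM in GR3 cells, against 146 and 141 CPM in parental cells (-1.45 ± 0.13, adjusted p = 1.16e-06). The S100A14 pairs were nearly equal within each group.

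Epithelial adhesion genes did not move as 1 block. Of 28 members 12 were lower and 3 higher, with a median of -0.49. The tight junction genes CLDN1 and CLDN3 were among the lower ones. CLDN1 had 12.1 and 22.9 CPM in GR3 cells, against 99.1 and 89.5 CPM in parental cells (-2.43 ± 0.35, adjusted p = 0.000118). CLDN3 had 6.0 and 6.64 CPM in GR3 cells, against 21.03 and 37.5 CPM in parental cells (-1.99 ± 0.28, adjusted p = 7.88e-05). GRHL1, a grainyhead factor of barrier epithelium, had 7.86 and 9.37 CPM in GR3 cells, against 65.7 and 63.9 CPM in parental cells (-2.78 ± 0.16, adjusted p = 8.99e-09), whereas its relative GRHL2 had 182 and 197 CPM in GR3 cells, against 88.9 and 131 CPM in parental cells (0.80 ± 0.15, adjusted p = 0.000855). The pair of grainyhead factors thus differed in direction. CDH1, which encodes E-cadherin, was also higher, with 268 and 289 CPM in GR3 cells, against 195 and 135 CPM in parental cells (0.78 ± 0.17, adjusted p = 0.0026), and so was CDH3, the P-cadherin gene, with 328 and 255 CPM in GR3 cells, against 162 and 115 CPM in parental cells (1.08 ± 0.18, adjusted p = 0.000289). E-cadherin RNA was therefore not lost in GR3 cells, and the lower members were claudins, GRHL1 and other junction and surface genes such as PROM2.

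The called mesenchymal and matrix genes were mostly higher. Of 16 tested members of the mesenchymal list 6 were higher and 1 lower, with a median of 0.86, and 9 more members were not listed or fell below the filter. SNAI2, the transcription factor SLUG, had 35.1 and 49.4 CPM in GR3 cells, against 17.2 and 7.18 CPM in parental cells (1.81 ± 0.32, adjusted p = 0.000662). SPARC, a collagen-binding matrix protein, had 9.29 and 7.65 CPM in GR3 cells, against 0.28 and 0.60 CPM in parental cells (2.72 ± 0.22, adjusted p = 3.6e-07). FN1, fibronectin, had 150.01 and 245 CPM in GR3 cells, against 90.4 and 53.3 CPM in parental cells (1.45 ± 0.46, adjusted p = 0.0244), and without GR3 replicate 2 its difference was 1.10 (adjusted p = 0.17), without parental replicate 2 it was 1.08 (adjusted p = 0.169). The fibronectin call thus leaned on 2 of the 4 libraries, while SNAI2 and SPARC kept theirs in all 4 fits. Of the other drivers on the list ZEB1 had 0.24 and 0.21 CPM in GR3 cells and 0.37 and 0.27 CPM in parental cells. VIM, vimentin, had 4.35 and 1.49 CPM in GR3 cells, against 0.95 and 0.91 CPM in parental cells (0.92 ± 0.46, adjusted p = 0.148), which did not pass the threshold.

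Of 17 collagens 6 were higher and 2 lower, with a median of 0.53. COL5A1, a chain of fibrillar collagen V, had 41.97 and 20.6 CPM in GR3 cells, against 0.40 and 1.64 CPM in parental cells (3.99 ± 0.30, adjusted p = 1.86e-07). COL27A1 had 7.84 and 7.42 CPM in GR3 cells, against 0.06 and 0.15 CPM in parental cells (2.97 ± 0.24, adjusted p = 4.06e-07). COL4A1, a basement membrane chain, had 9.75 and 10.9 CPM in GR3 cells, against 2.66 and 1.97 CPM in parental cells (1.78 ± 0.30, adjusted p = 0.000406). All 3 were higher in both GR3 libraries than in both parental ones. The lower members, COL6A1 and COL6A2, encode chains of collagen VI, and COL6A1 had 61.6 and 36.5 CPM in GR3 cells, against 101 and 68.7 CPM in parental cells (-0.80 ± 0.26, adjusted p = 0.03). Without GR3 replicate 2 the COL6A1 difference was -0.43 (adjusted p = 0.308), and without parental replicate 1 it was -0.52 (adjusted p = 0.235). Of 24 matrix and proteolysis genes 10 were higher and 4 lower, among them PXDN above. Of 5 tested genes of a list of leukocyte, endothelial and fibroblast markers 2 were higher and 1 lower. The 2 higher ones are known from endothelium: CDH5 had 5.54 and 7.88 CPM in GR3 cells, against 2.82 and 1.91 CPM in parental cells (1.19 ± 0.35, adjusted p = 0.0175) and ENG had 19.6 and 20.2 CPM in GR3 cells, against 10.6 and 8.83 CPM in parental cells (0.97 ± 0.15, adjusted p = 0.000207). Without GR3 replicate 2 the CDH5 difference was 0.97 (adjusted p = 0.122), and without parental replicate 2 it was 1.00 (adjusted p = 0.107). The part of such markers in the mesenchymal and matrix results was not tested.

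**Figure D2:**
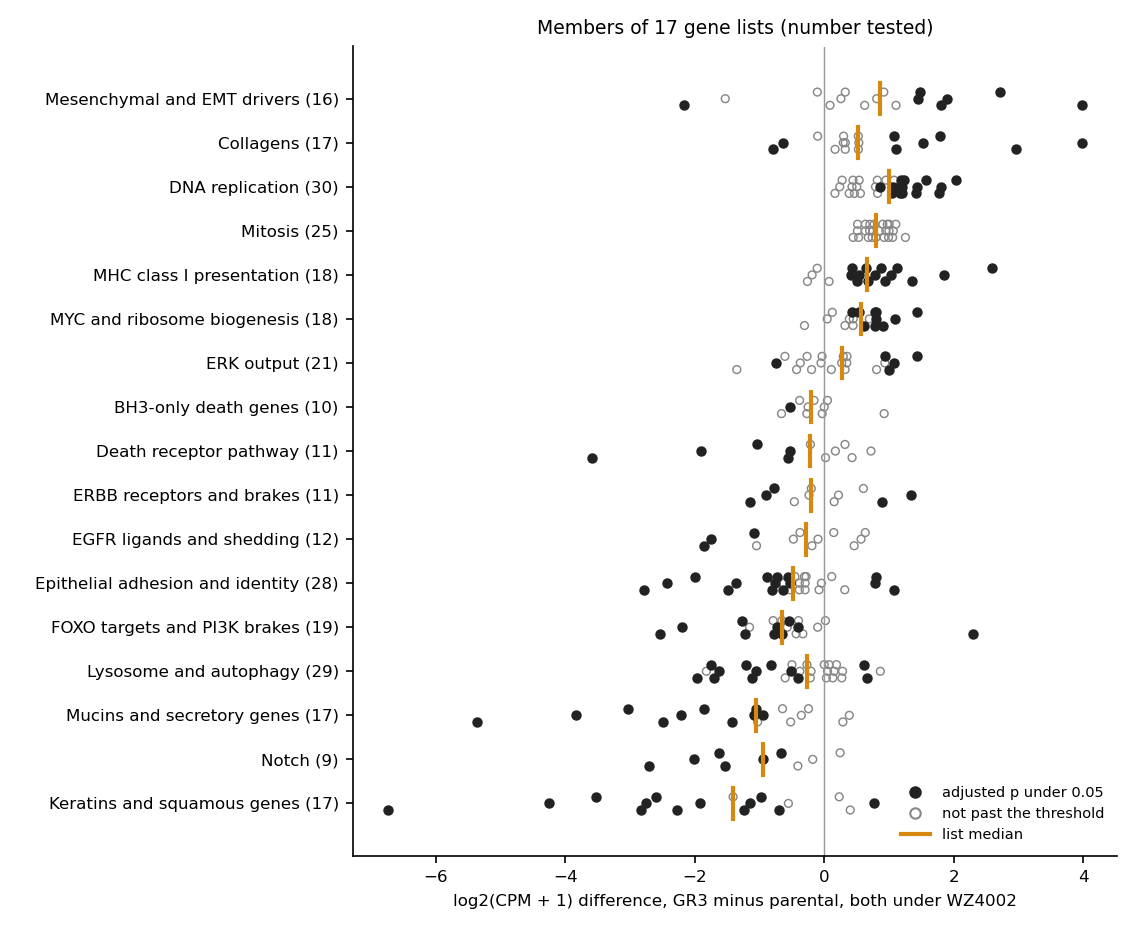
Difference in log2(CPM + 1), GR3 minus parental under WZ4002, of each tested member of 17 gene lists (number tested in brackets); filled points passed an adjusted p of 0.05, open points did not, and the orange bar is the list median. All 30 DNA replication and all 25 mitosis members lie above 0, yet none of the mitosis members is filled.

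Called genes for other receptor kinases and their ligands went both ways. Of 15 tested members of the list 4 were higher and 3 lower, where 14.3% of all genes were higher and 15.4% lower. AXL, a receptor kinase, had 145 and 81.3 CPM in GR3 cells, against 5.94 and 8.81 CPM in parental cells (3.73 ± 0.27, adjusted p = 1.45e-07). GAS6, its ligand, had 67.5 and 44.1 CPM in GR3 cells, against 9.58 and 16.7 CPM in parental cells (2.02 ± 0.35, adjusted p = 0.000449). Receptor and ligand were thus both higher in both GR3 libraries, by 15.4 and 4.25 times in CPM. FGFR1, a fibroblast growth factor receptor, had 39.1 and 33.3 CPM in GR3 cells, against 9.09 and 12.2 CPM in parental cells (1.68 ± 0.19, adjusted p = 1.41e-05). MET, the receptor for hepatocyte growth factor, went the other way with 46.3 and 35.6 CPM in GR3 cells, against 55.8 and 91.4 CPM in parental cells (-0.80 ± 0.21, adjusted p = 0.0102), but without GR3 replicate 2 its difference was -0.61 (adjusted p = 0.101) and without parental replicate 2 it was -0.45 (adjusted p = 0.147). TYRO3, a relative of AXL, also had a call that rested on single libraries, with 11.3 and 9.68 CPM in GR3 cells, against 4.99 and 6.49 CPM in parental cells (0.78 ± 0.24, adjusted p = 0.0232). Its difference was 0.67 without GR3 replicate 1 (adjusted p = 0.132) and 0.62 without parental replicate 1 (adjusted p = 0.144).

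The drug target and 3 of its ligands were lower. EGFR had 536 and 373 CPM in GR3 cells, against 823 and 1202 CPM in parental cells (-1.15 ± 0.24, adjusted p = 0.00234). ERBB2, its usual partner, had 109 and 103 CPM in GR3 cells, against 163 and 239.8 CPM in parental cells (-0.89 ± 0.20, adjusted p = 0.0033). Without parental replicate 2 the ERBB2 difference was -0.62 (adjusted p = 0.0512), while EGFR kept its call in each of the 4 fits. Of 12 ligand and shedding genes 3 were lower and 0 higher. EGF had 6.93 and 6.18 CPM in GR3 cells, against 25.5 and 23.4 CPM in parental cells (-1.75 ± 0.22, adjusted p = 3.11e-05). TGFA had 14.6 and 25.2 CPM in GR3 cells, against 35.7 and 48.6 CPM in parental cells (-1.08 ± 0.28, adjusted p = 0.00842). EREG, epiregulin, had 0.35 and 1.16 CPM in GR3 cells, against 5.05 and 5.33 CPM in parental cells (-1.86 ± 0.48, adjusted p = 0.00888). Without GR3 replicate 1 TGFA stood at -0.70 (adjusted p = 0.124) and EREG at -1.52 (adjusted p = 0.0842), and without parental replicate 2 TGFA stood at -0.86 (adjusted p = 0.0757). PTPN1, a phosphatase that removes phosphate from receptor kinases, was higher with 101 and 99.5 CPM in GR3 cells, against 51.1 and 55.6 CPM in parental cells (0.90 ± 0.12, adjusted p = 7.53e-05).

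The ERK readout DUSP6 was low in both cell types under the drug. DUSP6, the ERK phosphatase that reads out the cascade most directly, had 0.32 and 0.08 CPM in GR3 cells and 0.43 and 0.44 CPM in parental cells (-0.27 ± 0.41, adjusted p = 0.67), with a 95% interval of the difference from -1.14 to 0.61. In vehicle DUSP6 had 35.2 and 56.8 CPM in GR3 cells, against 110.3 and 103 CPM in parental cells (-1.23 ± 0.41, adjusted p = 0.0451). Both cell types thus held far less DUSP6 RNA with the drug than without it, and a difference between them under the drug was not detectable at these levels. Of 21 ERK output genes 4 were higher and 1 lower, where 14.3% of all genes were higher and 15.4% lower. The list median was 0.27, and -0.01 without parental replicate 1 under WZ4002. MYC, which drives growth and ribosome synthesis, had 81.3 and 134 CPM in GR3 cells, against 36.9 and 39.2 CPM in parental cells (1.44 ± 0.29, adjusted p = 0.0015). CCND1, cyclin D1, had 139.7 and 175 CPM in GR3 cells, against 50.1 and 108 CPM in parental cells (1.08 ± 0.27, adjusted p = 0.0066). SPRED1, a feedback inhibitor, had 7.06 and 6.82 CPM in GR3 cells, against 2.97 and 3.32 CPM in parental cells (0.94 ± 0.24, adjusted p = 0.00885). The MYC and SPRED1 calls held in all 4 fits that left out a library. The CCND1 difference was 0.91 without GR3 replicate 2 (adjusted p = 0.0602) and 0.53 without parental replicate 1 (adjusted p = 0.109).

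Among cell death genes, 1 of 10 BH3-only genes and 5 of 11 death receptor genes were called, where 29.7% of all genes were. BCL2L11, which encodes BIM, had 29.9 and 34.9 CPM in GR3 cells, against 52.6 and 42.04 CPM in parental cells (-0.53 ± 0.18, adjusted p = 0.0361). MCL1, a survival protein that binds BIM, had 136 and 141 CPM in GR3 cells, against 206 and 168 CPM in parental cells (-0.43 ± 0.13, adjusted p = 0.0208). Both differences were small, and each held in 1 of the 4 fits that left out a library. BCL2L11 had an adjusted p of 0.203 without GR3 replicate 1, 0.0532 without GR3 replicate 2 and 0.233 without parental replicate 1, and MCL1 of 0.0976, 0.0612 and 0.188 in the same fits. BCL2L11 was the called BH3-only gene. In vehicle it had 19.6 and 30.4 CPM in GR3 cells, against 17.15 and 18.6 CPM in parental cells (0.43 ± 0.18, adjusted p = 0.104). With WZ4002 against vehicle it rose by 1.35 ± 0.18 in parental cells (adjusted p = 3.52e-05). In GR3 cells its response was 0.39 ± 0.18 (adjusted p = 0.131). The limma test of its gap between drug and vehicle gave -0.96 ± 0.25 (adjusted p = 0.073), which did not pass the threshold. BAX, a pore-forming effector, had 53.02 and 63.3 CPM in GR3 cells, against 44.9 and 36.9 CPM in parental cells (0.50 ± 0.17, adjusted p = 0.0385), with an adjusted p of 0.224 without GR3 replicate 2 and 0.223 without parental replicate 2.

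The 5 called death receptor genes were all lower. TNFSF10, which encodes the death ligand TRAIL, had 13.5 and 8.60 CPM in GR3 cells, against 123 and 159 CPM in parental cells (-3.58 ± 0.37, adjusted p = 4.68e-06). CASP10, an initiator caspase, had 9.88 and 4.69 CPM in GR3 cells, against 33.4 and 24.1 CPM in parental cells (-1.90 ± 0.29, adjusted p = 0.000195). CFLAR, the inhibitor FLIP that competes with those caspases, had 26.9 and 30.2 CPM in GR3 cells, against 54.3 and 65.97 CPM in parental cells (-1.04 ± 0.15, adjusted p = 0.000116). Ligand, caspase and inhibitor were all lower in both GR3 libraries, by 12.8, 3.95 and 2.11 times in CPM. CASP8, the main initiator caspase, had 16.2 and 14.7 CPM in GR3 cells, against 24.3 and 21.98 CPM in parental cells (-0.55 ± 0.13, adjusted p = 0.00592), and without GR3 replicate 2 its difference was -0.49 (adjusted p = 0.0507).

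**Figure D3:**
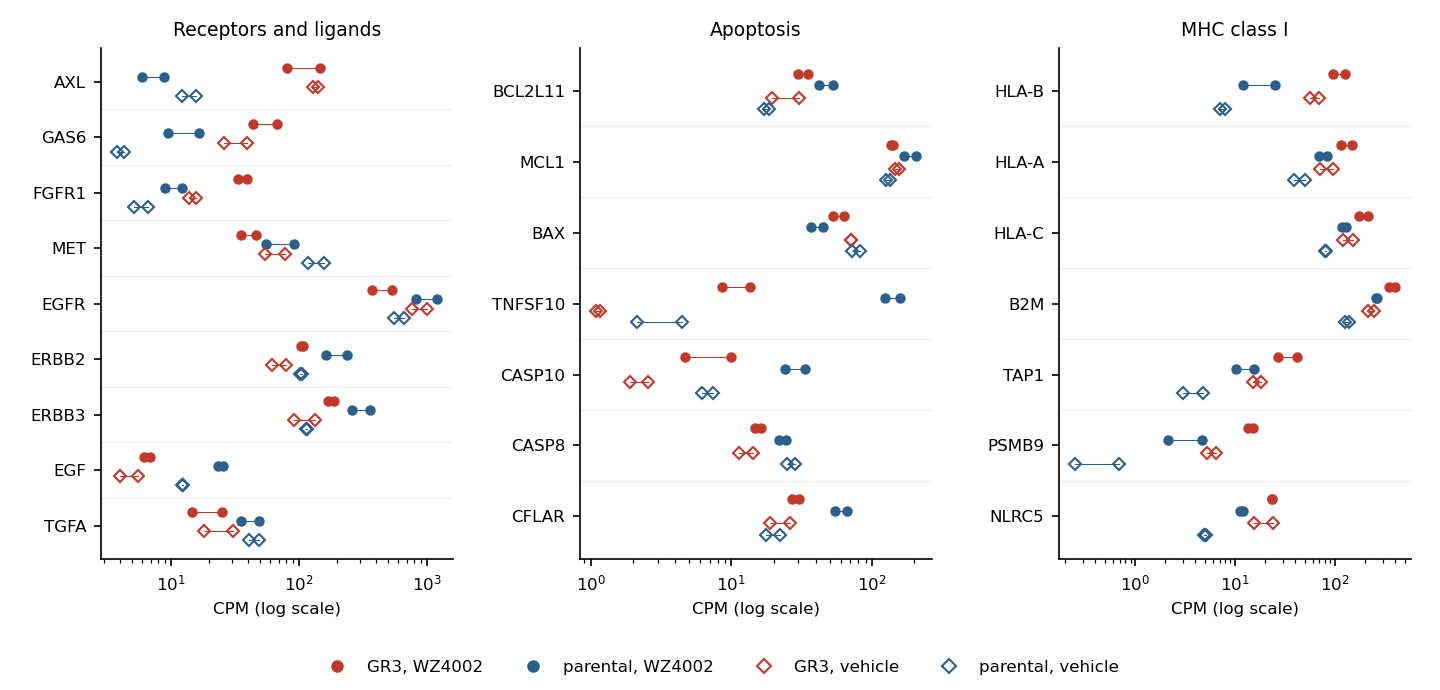
CPM (log axis) of receptors and ligands (left), apoptosis genes (middle) and MHC class I genes (right), 1 point per library; filled circles are WZ4002 and open diamonds vehicle, red GR3 and blue parental. Under WZ4002 the GR3 points lie above the parental ones for AXL, GAS6, FGFR1 and the 7 MHC class I genes, and below them for EGFR, EGF and TNFSF10.

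DNA replication genes were higher in GR3 cells under the drug. Of 30 tested members 15 were higher and 0 lower, and all 30 differences were above 0, with a median of 1.00. GINS4, a subunit of the replicative helicase, had 12.7 and 13.2 CPM in GR3 cells, against 2.02 and 2.82 CPM in parental cells (2.03 ± 0.27, adjusted p = 4.77e-05). Its GR3 libraries both lay above the parental ones. MCM2, a core helicase subunit, had 53.8 and 28.8 CPM in GR3 cells, against 7.53 and 14.6 CPM in parental cells (1.81 ± 0.45, adjusted p = 0.00632). MCM6, another, had 35.4 and 25.4 CPM in GR3 cells, against 9.83 and 11.2 CPM in parental cells (1.43 ± 0.36, adjusted p = 0.00753). The groups did not overlap for these MCM genes either. In vehicle, where 9.77% of all genes were called higher and 11.1% lower, the list had a median of -0.06, with 1 member higher and 0 lower. MCM2 there had 134 and 45.9 CPM in GR3 cells, against 84.5 and 53.5 CPM in parental cells, groups that overlap. The direct test of the gap between drug and vehicle, which 1.29% of all genes passed, called 0 of the 30 by limma and 0 by limma-voom, with 12 at an unadjusted p under 0.05, so a difference between drug and vehicle was not shown for any member.

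The replication calls leaned on 2 libraries. Without GR3 replicate 1 there were 3 members higher and the median was 0.77, and without parental replicate 1 there were 4 and the median was 0.78, whereas 15 were higher without GR3 replicate 2 and 14 without parental replicate 2. GINS4 kept its call in all 4 of these fits. MCM2 stood at 1.37 without GR3 replicate 1 (adjusted p = 0.0804) and at 1.37 without parental replicate 1 (adjusted p = 0.071), and MCM6 at 1.20 without GR3 replicate 1 (adjusted p = 0.0711).

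Many replication genes are known to be driven by E2F factors, so their promoters were searched for E2F-type letters. The windows ran from 250 bases before to 50 after the gene start in RefSeq on GRCh38.p14, with genes matched by symbol, since the reads had been counted on hg19. The motifs TTTCCCGC, TTTGGCGC, TTTCGCGC and TTTGCCGC were sought on both strands, and they can overlap. Of the 25 of 30 members with a window, 17 (68.0%) held a motif, among them 10 of the 12 called members with a window. Among 10717 genes tested with a window, 694 (6.48%) did. The share over the list is a property of the list and not of its calls. The windows of MCM2 (chr3:127598161-127598460, plus strand) and MCM6 (chr2:135876394-135876693, minus strand) are shown because both hold overlapping matches on the 2 strands, in capitals. A match is a description of letters and not of binding.
MCM2: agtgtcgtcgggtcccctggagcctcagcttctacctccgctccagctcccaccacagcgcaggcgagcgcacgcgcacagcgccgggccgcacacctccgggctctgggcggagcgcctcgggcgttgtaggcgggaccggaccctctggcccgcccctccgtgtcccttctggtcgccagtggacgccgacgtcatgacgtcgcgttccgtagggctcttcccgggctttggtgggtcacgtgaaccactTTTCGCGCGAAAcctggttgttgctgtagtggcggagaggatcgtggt
MCM6: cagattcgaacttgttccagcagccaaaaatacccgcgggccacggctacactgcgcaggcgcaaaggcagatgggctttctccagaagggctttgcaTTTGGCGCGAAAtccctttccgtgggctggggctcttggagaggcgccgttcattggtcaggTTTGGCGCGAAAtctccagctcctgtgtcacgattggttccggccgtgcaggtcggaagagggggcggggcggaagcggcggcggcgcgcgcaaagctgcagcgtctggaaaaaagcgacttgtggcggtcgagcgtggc

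Mitosis genes did not separate the groups. Of 25 tested members 0 were called by limma and 0 by limma-voom, and 0 had an unadjusted p under 0.05, at a median of 0.80, and for each of the 25 the GR3 and parental libraries overlapped. MKI67, the proliferation antigen, had 160.5 and 37.3 CPM in GR3 cells and 20.3 and 88.5 CPM in parental cells (0.85 ± 0.66, adjusted p = 0.357). TOP2A, the topoisomerase of mitotic chromosomes, had 238 and 57.1 CPM in GR3 cells and 32.3 and 156 CPM in parental cells (0.70 ± 0.70, adjusted p = 0.484). In both genes GR3 replicate 1 and parental replicate 2 were high, and GR3 replicate 2 and parental replicate 1 were low. The median moved to -0.11 without GR3 replicate 1 and -0.04 without parental replicate 1, and to 1.72 without GR3 replicate 2 and 1.74 without parental replicate 2, where 3 and 4 members were higher. The summed level of the list was 1843 and 503 CPM in GR3 cells and 273 and 1055 CPM in parental cells, and the part of that spread in the replication result was not tested. In the deposited column order, GR3 replicate 2 and parental replicate 1 under WZ4002 fell in the same run of columns. GR3 replicate 1 fell in an earlier run and parental replicate 2 in a later one. The labels do not say whether these runs are batches. With a term for the runs, 3 mitosis members were higher and 0 lower, at a median of 0.90.

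**Figure D4:**
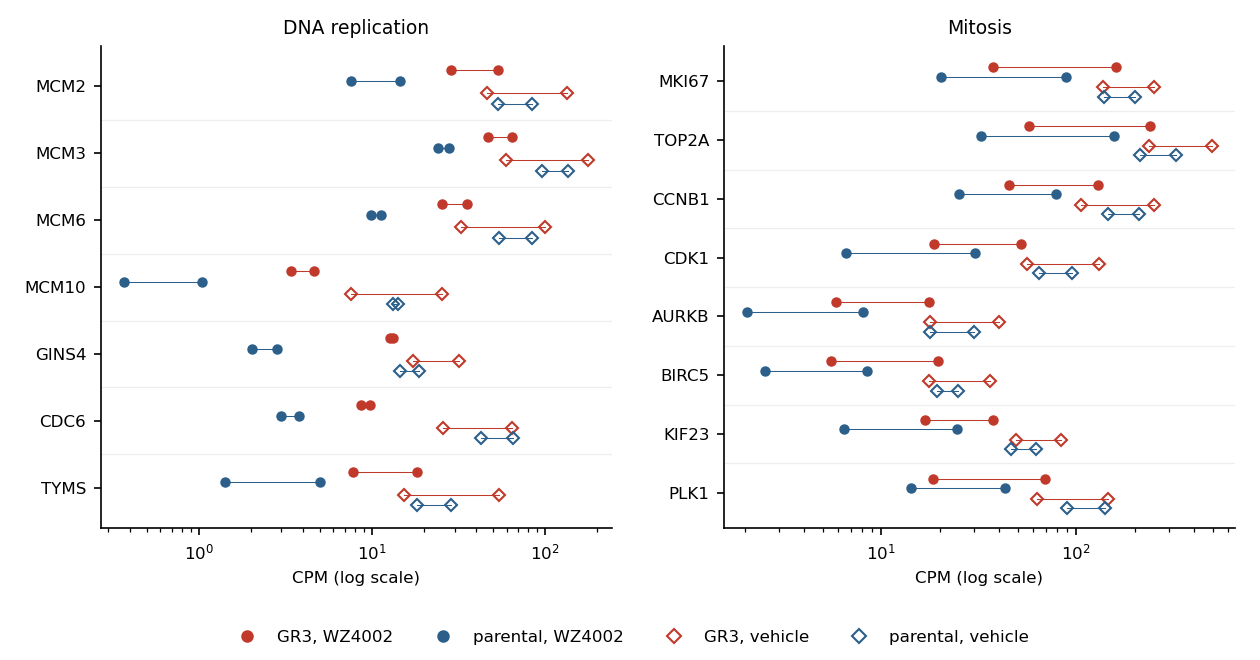
CPM (log axis) of 7 DNA replication genes (left) and 8 mitosis genes (right), 1 point per library; filled circles are WZ4002 and open diamonds vehicle, red GR3 and blue parental. Under WZ4002 the red and blue circles are apart for the replication genes and overlap for the mitosis genes, and both lie mostly below the vehicle diamonds.

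G1 regulators changed in both directions. Of 14 tested members 5 were higher and 1 lower. CDK4, the partner of cyclin D, had 37.9 and 37.6 CPM in GR3 cells, against 22.7 and 21.4 CPM in parental cells (0.75 ± 0.14, adjusted p = 0.00077), whereas its relative CDK6 had 47.7 and 44.7 CPM in GR3 cells, against 83.5 and 90.9 CPM in parental cells (-0.90 ± 0.16, adjusted p = 0.000614). CDKN1C, an inhibitor that holds cells in G1, was higher with 8.38 and 4.48 CPM in GR3 cells, against 0.34 and 1.14 CPM in parental cells (2.08 ± 0.23, adjusted p = 1.08e-05). The inhibitor genes CDKN1B and CDKN2A were also called higher. Across the fits that left out a library their differences were 0.25 to 0.66 for CDKN1B and 0.32 to 0.85 for CDKN2A. Cyclin-dependent kinase inhibitors were thus among the higher genes together with replication genes.

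MYC and ribosome biogenesis genes were higher as well, 10 of 18 with 0 lower and a median of 0.57. DKC1, the pseudouridine synthase of small nucleolar particles, had 78.9 and 109 CPM in GR3 cells, against 44.02 and 41.8 CPM in parental cells (1.09 ± 0.22, adjusted p = 0.00178). NOP58, a core protein of the same particles, had 45.4 and 52.7 CPM in GR3 cells, against 25.99 and 25.2 CPM in parental cells (0.91 ± 0.19, adjusted p = 0.00222). The groups were apart for both and each held in all 4 fits. The count of higher members was 4 without GR3 replicate 2 and 7 to 12 in the other 3 fits. In vehicle 1 member was higher and 0 lower, and the test of the gap between drug and vehicle called 0 of the 18 by limma and 0 by limma-voom, with 4 at an unadjusted p under 0.05.

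RNA of MHC class I presentation genes was higher. Of 18 tested members 14 were higher and 0 lower, with a median of 0.66. HLA-B, a class I heavy chain, had 95.6 and 125 CPM in GR3 cells, against 12.03 and 24.9 CPM in parental cells (2.59 ± 0.28, adjusted p = 6.21e-06), and its reads can be confused with those of other HLA genes. PSMB9, an immunoproteasome subunit, had 13.4 and 15.01 CPM in GR3 cells, against 2.14 and 4.71 CPM in parental cells (1.84 ± 0.29, adjusted p = 0.000199). In both genes every GR3 library lay above every parental one. TAP1, a subunit of the peptide transporter, had 26.8 and 42.1 CPM in GR3 cells, against 10.2 and 15.4 CPM in parental cells (1.35 ± 0.26, adjusted p = 0.00125). NLRC5, the transactivator of class I genes, had 23.4 and 23.4 CPM in GR3 cells, against 12.2 and 11.2 CPM in parental cells (0.94 ± 0.20, adjusted p = 0.00238). All 4 kept their calls with any library left out. B2M, the invariant chain, had 349 and 401 CPM in GR3 cells, against 267 and 260.5 CPM in parental cells (0.50 ± 0.16, adjusted p = 0.0293), with an adjusted p of 0.169 without GR3 replicate 2, 0.0785 without parental replicate 1 and 0.0978 without parental replicate 2. Over the list 8 to 12 members were higher in those fits. In vehicle, in other libraries, 14 members were higher and 2 lower, and HLA-B there had 55.8 and 68.7 CPM in GR3 cells, against 7.95 and 7.04 CPM in parental cells (2.89 ± 0.28, adjusted p = 4.04e-06).

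Class I genes are known targets of interferon-regulated factors. The letters GAAA, any 2 bases and GAAA again were sought on both strands of the same windows. Of the 14 of 18 members with a window 9 (64.3%) held them, among them 8 of the 12 called members with a window. Over 10717 genes tested with a window, 415 (3.87%) held them. The list share is again a property of the list and not of its calls. The B2M window (chr15:44711267-44711566, plus strand) holds overlapping matches, in capitals, and the HLA-B window (chr6:31357130-31357429, minus strand) holds none. They are shown as a member with a small difference and the member with the largest one on the list.
B2M: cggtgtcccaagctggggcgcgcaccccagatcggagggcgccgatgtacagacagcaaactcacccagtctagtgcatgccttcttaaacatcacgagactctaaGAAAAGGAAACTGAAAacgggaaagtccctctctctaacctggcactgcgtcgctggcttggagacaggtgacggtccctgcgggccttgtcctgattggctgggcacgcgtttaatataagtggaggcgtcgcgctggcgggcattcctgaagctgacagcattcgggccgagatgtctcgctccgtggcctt
HLA-B: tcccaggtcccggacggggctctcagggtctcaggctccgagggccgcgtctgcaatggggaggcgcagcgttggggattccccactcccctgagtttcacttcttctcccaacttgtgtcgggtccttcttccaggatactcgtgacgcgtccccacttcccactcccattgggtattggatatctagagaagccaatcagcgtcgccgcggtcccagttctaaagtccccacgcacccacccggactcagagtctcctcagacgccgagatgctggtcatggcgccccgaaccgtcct

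Under WZ4002 interferon-stimulated genes did not follow the class I genes as a block. In vehicle, where 9.77% of all genes were called higher and 11.1% lower, 8 of 29 tested members were higher and 2 lower. Their median there was 0.37. The test of the gap between drug and vehicle called 3 of the 29, all lower, where 1.29% of all genes passed. Under WZ4002 5 of the 29 were higher and 7 lower, with a median of 0.01. MX1, an antiviral GTPase, had 15.96 and 11.1 CPM in GR3 cells, against 1.78 and 2.47 CPM in parental cells (2.21 ± 0.22, adjusted p = 2.73e-06). UBE2L6, the conjugating enzyme for ISG15, had 74.4 and 65.05 CPM in GR3 cells, against 17.5 and 22.98 CPM in parental cells (1.75 ± 0.25, adjusted p = 9.17e-05). SAMD9L, a growth-restraining antiviral gene, went the other way with 0.87 and 0.57 CPM in GR3 cells, against 9.37 and 6.74 CPM in parental cells (-2.39 ± 0.29, adjusted p = 2.28e-05). Each of the 3 separated the groups and kept its call in all 4 fits.

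FOXO targets and brakes of PI3K were lower, with 9 of 19 lower, 1 higher and a median of -0.65. PIK3IP1, an inhibitor of PI3K, had 37.4 and 27.1 CPM in GR3 cells, against 158 and 226 CPM in parental cells (-2.53 ± 0.46, adjusted p = 0.000744). SESN1, a sestrin that restrains mTORC1, had 5.65 and 3.94 CPM in GR3 cells, against 28.2 and 22.8 CPM in parental cells (-2.20 ± 0.20, adjusted p = 1.06e-06), whereas SESN3, another sestrin, had 21.6 and 11.1 CPM in GR3 cells, against 1.01 and 4.62 CPM in parental cells (2.30 ± 0.36, adjusted p = 0.000194). INPP4B, a phosphoinositide phosphatase, had 30.9 and 27.4 CPM in GR3 cells, against 70.2 and 68.4 CPM in parental cells (-1.22 ± 0.23, adjusted p = 0.000994). The 3 lower genes were below parental levels in both GR3 libraries and SESN3 was above them. Across the fits that left out a library 5 to 9 members were lower.

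Notch genes were lower, 6 of 9 with 0 higher and a median of -0.94. NOTCH3, a receptor, had 60.2 and 48.2 CPM in GR3 cells, against 397 and 323 CPM in parental cells (-2.71 ± 0.23, adjusted p = 7.95e-07). Its targets HES1, with 27.6 and 21.4 CPM in GR3 cells, against 62.2 and 96.3 CPM in parental cells (-1.63 ± 0.20, adjusted p = 2.45e-05). NRARP, a feedback inhibitor, with 7.49 and 7.96 CPM in GR3 cells, against 44.6 and 26.1 CPM in parental cells (-2.01 ± 0.28, adjusted p = 6.97e-05), were lower too. For all 3 the groups were apart and the calls held in each of the 4 fits.

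Both chains of 1 amino acid transporter were higher. SLC7A5 carries large neutral amino acids into the cell and SLC3A2 is its partner chain. SLC7A5 had 434 and 340.2 CPM in GR3 cells, against 53.4 and 37.4 CPM in parental cells (3.08 ± 0.36, adjusted p = 1.73e-05). SLC3A2 had 171 and 169 CPM in GR3 cells, against 70.8 and 75.2 CPM in parental cells (1.21 ± 0.27, adjusted p = 0.0031). MTHFD2, a mitochondrial folate enzyme, had 63.1 and 47.8 CPM in GR3 cells, against 19.6 and 29.1 CPM in parental cells (1.17 ± 0.24, adjusted p = 0.00171). All 3 lay above parental levels in both GR3 libraries. The transcription factor known to induce them, ATF4, had 101 and 103 CPM in GR3 cells, against 211 and 202 CPM in parental cells (-1.01 ± 0.13, adjusted p = 3.57e-05). ATF4 RNA was also lower in vehicle (-1.02 ± 0.13, adjusted p = 5.96e-05). The test of its gap between drug and vehicle gave 0.003 ± 0.18 (adjusted p = 0.996). GDF15, another stress-induced gene, had 1.0 and 1.21 CPM in GR3 cells, against 12.3 and 11.6 CPM in parental cells (-2.63 ± 0.54, adjusted p = 0.00181). Of 27 members of that stress response list 6 were higher and 2 lower, with a median of -0.13.

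The baseline gap between the 2 cell types, measured in vehicle with other libraries, shared many of these genes. In vehicle 1513 genes were higher in GR3 cells (9.77%) and 1715 lower (11.1%). Of the genes higher under WZ4002, 858 were also higher in vehicle, which is 38.8% of the calls with the drug and 56.7% of those in vehicle, and 7 were lower there. Of the genes lower under WZ4002, 1107 were also lower in vehicle, 46.5% and 64.5% of the lists, and 7 were higher. Of the 24 genes with the largest differences, 10 of the 12 higher ones were also called higher in vehicle and 9 of the 12 lower ones lower. AXL had 142 and 128 CPM in GR3 cells, against 15.8 and 12.3 CPM in parental cells in vehicle (3.18 ± 0.27, adjusted p = 1.36e-06). PXDN had 0.07 and 0.25 CPM in GR3 cells, against 269 and 216 CPM in parental cells (-7.71 ± 0.16, adjusted p = 2.09e-14).

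The drug response itself was counted within each cell type. With WZ4002 against vehicle, GR3 cells had 1878 genes higher (12.1%) and 1528 lower (9.87%), and parental cells had 3892 higher (25.1%) and 3456 lower (22.3%). The GR3 total of 3406 became 1729 without replicate 2 under WZ4002 and 1987 without replicate 1 in vehicle, and the parental total of 7348 became 4840 without replicate 1 in vehicle. Whether the 2 totals differ was not tested. SLC7A5 fell by 3.20 ± 0.36 on the log2 scale in parental cells (adjusted p = 9.56e-06), and in GR3 cells its response was -0.45 ± 0.36 (adjusted p = 0.408).

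Whether the gap itself differed between drug and vehicle was tested as a difference of differences, which passed the threshold at 200 genes (1.29%), 98 higher (0.633%) and 102 lower (0.659%). Most named genes were chosen by their difference under WZ4002, which is a term of this gap. Among the named genes that passed, SLC7A5 had the largest positive difference. In vehicle it had 365 and 754 CPM in GR3 cells, against 462 and 377 CPM in parental cells (0.33 ± 0.36, adjusted p = 0.585), so the groups overlapped there, and the gap was higher under WZ4002 by 2.75 ± 0.52 (adjusted p = 0.0168). EGFR had 764 and 1012 CPM in GR3 cells, against 658 and 554 CPM in parental cells in vehicle (0.54 ± 0.24, adjusted p = 0.134), and its gap was lower under WZ4002 (-1.69 ± 0.35, adjusted p = 0.0259). TPPP3 is a tubulin polymerization-promoting protein. TPPP3 had 0.14 and 0.05 CPM in GR3 cells, against 0.36 and 0.90 CPM in parental cells in vehicle, and its gap was lower under WZ4002 (-3.83 ± 0.44, adjusted p = 0.000681). TNFSF10 had 1.17 and 1.09 CPM in GR3 cells, against 2.13 and 4.47 CPM in parental cells in vehicle, with a lower gap under the drug as well (-2.62 ± 0.53, adjusted p = 0.0234). For AXL the test of the gap gave 0.55 ± 0.39, adjusted p = 0.503, with an interval that includes 0. Without replicate 1 of vehicle-treated parental cells SLC7A5 had an adjusted p of 0.0912, EGFR of 0.0832 and TNFSF10 of 0.139. SLC7A5 also missed the threshold without parental replicate 2 under WZ4002 (adjusted p = 0.0532). EGFR and TNFSF10 also missed it without GR3 replicate 2 in either treatment and without parental replicate 2 under WZ4002 (adjusted p from 0.0602 to 0.101), and EGFR without replicate 2 of vehicle-treated parental cells (adjusted p = 0.0723). The count of 200 genes moved with single libraries, to 46 genes without replicate 1 of vehicle-treated parental cells and to 1059 without replicate 1 of vehicle-treated GR3 cells.

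**Figure D5:**
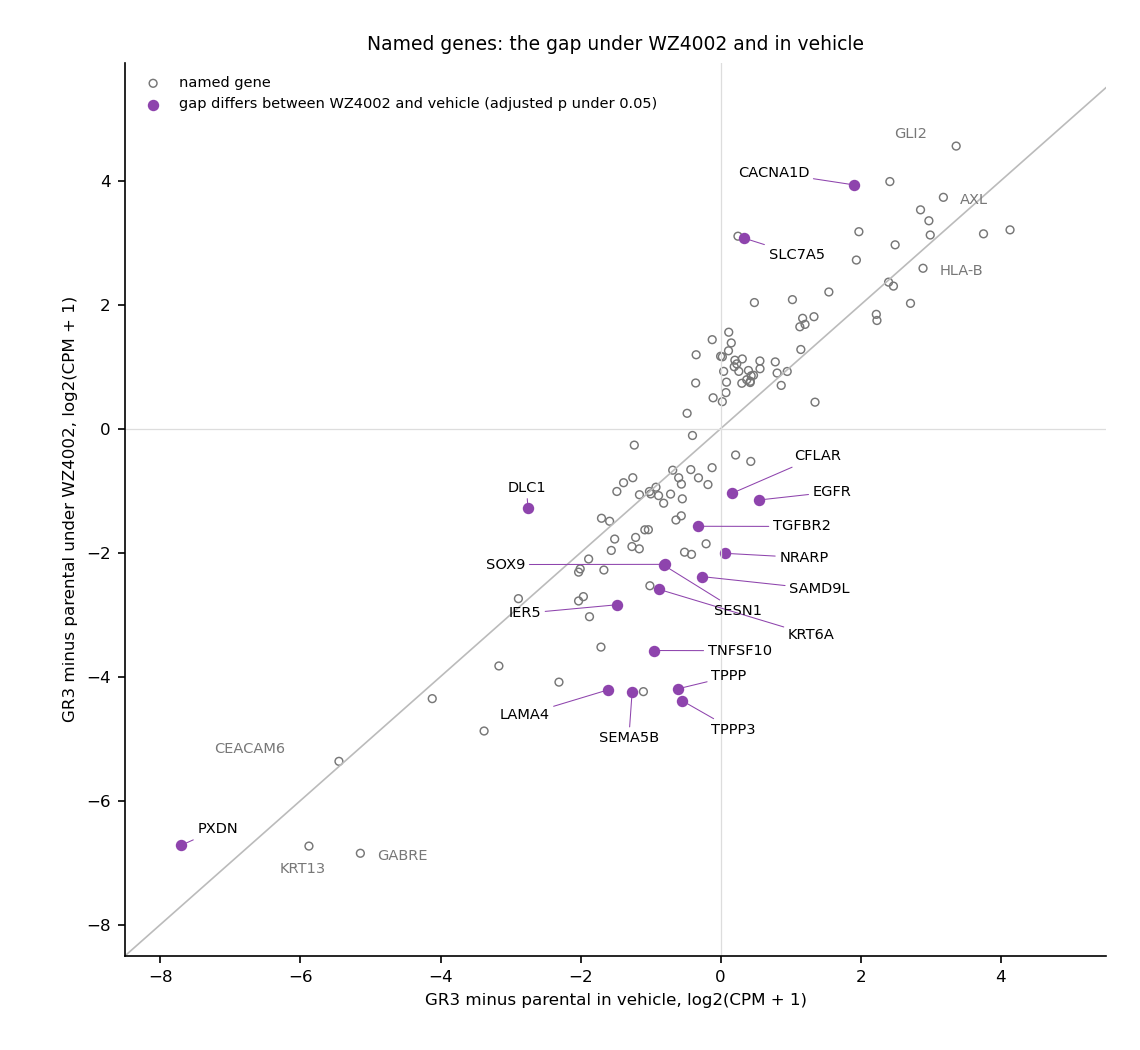
GR3 minus parental difference in log2(CPM + 1) under WZ4002 (vertical) against the same in vehicle (horizontal) for the named genes; purple points are those whose gap differed between drug and vehicle at an adjusted p under 0.05, and the diagonal marks equal gaps. AXL, HLA-B and CEACAM6 lie near the diagonal, SLC7A5 lies above it at a vehicle gap of 0.33, and TPPP, TPPP3 and TNFSF10 lie below it.

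Set directly against GR2 cells under WZ4002, with the GR3 libraries shared with the comparison above, GR3 cells were higher at 2509 genes (16.2%) and lower at 2670 (17.2%). All 12 genes furthest above parental levels were also higher than in GR2 cells, and all 12 furthest below were also lower. These genes were chosen on the same GR3 libraries, so those counts are a description. AXL had 145 and 81.3 CPM in GR3 cells, against 5.36 and 2.69 CPM in GR2 cells (4.50 ± 0.27, adjusted p = 1.86e-08). PXDN had 0.06 and 0.23 CPM in GR3 cells, against 60.7 and 48.3 CPM in GR2 cells (-5.59 ± 0.16, adjusted p = 3.18e-12). Of the 30 replication genes 17 were higher in GR3 than in GR2 cells and 0 lower, with a median of 0.92.

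Against WZ4002-tolerant cells under WZ4002, GR3 cells were higher at 2278 genes (14.7%) and lower at 2157 (13.9%). The GR3 libraries were those on which the genes furthest from parental levels had been chosen, so the counts of those genes here are a description. Of the 12 genes furthest above parental levels 7 were also higher than in tolerant cells and 1 was lower, and of the 12 furthest below 6 were also lower and 1 was higher. AXL had 145 and 81.3 CPM in GR3 cells, against 108 and 107 CPM in tolerant cells (0.02 ± 0.27, adjusted p = 0.974). GAS6 had 67.5 and 44.1 CPM in GR3 cells, against 73.7 and 94.8 CPM in tolerant cells (-0.61 ± 0.35, adjusted p = 0.208). NOTCH3 had 60.2 and 48.2 CPM in GR3 cells, against 68.8 and 53.96 CPM in tolerant cells (-0.18 ± 0.23, adjusted p = 0.616). No difference was shown for these 3 genes, with 95% intervals from -0.57 to 0.60 for AXL, -1.34 to 0.13 for GAS6 and -0.67 to 0.32 for NOTCH3. CACNA1D had 17.2 and 13 CPM in GR3 cells, against 0.06 and 0.07 CPM in tolerant cells (3.90 ± 0.16, adjusted p = 4e-10). GABRE had 0.15 and 0.10 CPM in GR3 cells, against 79.3 and 29.2 CPM in tolerant cells (-5.45 ± 0.37, adjusted p = 1.26e-07). CACNA1D and GABRE were both chosen on these GR3 libraries, so their values here are no separate test. Of the 21 ERK output genes 2 were higher and 10 lower in GR3 than in tolerant cells, with a median of -0.74. Of the 30 replication genes 1 was higher and 3 lower in GR3 than in tolerant cells, with a median of -0.44. DUSP6 had 0.32 and 0.08 CPM in GR3 cells, against 1.01 and 3.77 CPM in tolerant cells (-1.37 ± 0.41, adjusted p = 0.0208).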

How the data were processed

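Gene expression was measured by sequencing polyA RNA in 22 libraries, 11 groups of 2. The deposited values are CPM (reads of a gene scaled to a common library total), rounded by the authors to 2 decimals. The submitters' processing notes name STAR, HTSeq and hg19, with no versions, and whether counting used strand is not given in the sources used here. Reads per library were recovered from the smallest CPM steps. The table lists 17165 genes, 16779 of them with a symbol, and holds no value of 0, so genes silent in any library are not analysed here.

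From the deposited CPM, log2(CPM + 1) was computed, and 15485 genes with at least 1 CPM in at least 2 libraries were kept. limma 3.58.1 (trend, R 4.3.3) was fitted over all 22 libraries with 11 group means, and p-values were adjusted by Benjamini-Hochberg over all genes kept. Tables and plots used Python 3.11.15, pandas 2.3.3, numpy 2.4.6 and matplotlib 3.10.9.

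The groups compared, the 40 gene lists and the rule for naming genes were chosen with earlier results of these data known. The rule names the 12 largest differences each way (adjusted p under 0.05, at least 5 CPM in both libraries of 1 group, groups apart), the lowest p-values of each list (at most 3 genes), and 4 preset genes (BCL2L11, DUSP6, EGFR, MCL1), 133 in all. Other genes that appear in the text or plots, such as MCM2, MCM6, B2M, NLRC5, CDH1, MET, MKI67, TGFBR1 and GDF15, were chosen after their values were seen.

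Some genes are not reported here by name. Intervals cover 95% of the model's error. The alternatives tried were the pseudocount, the filter, the scaling, limma-voom on recovered reads, a fit on the groups compared alone, a replicate block and leaving out each library.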

Additional observations from a re-analysis of the deposited data

Results flagged for a closer look

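Several named genes had a GR3 minus parental gap that differed between WZ4002 and vehicle by limma's test of the difference itself. Over all genes 1.29% passed it. Most named genes were chosen by their difference under WZ4002, which is a term of this gap. The share of them that passed therefore cannot be set against that of all genes. The gap was lower under WZ4002 for TPPP3 (-3.83 ± 0.44, adjusted p = 0.000681), TPPP (-3.59 ± 0.43, adjusted p = 0.000686), LAMA4 (-2.60 ± 0.34, adjusted p = 0.00163), IER5, an immediate-early gene (-1.36 ± 0.20, adjusted p = 0.00376), and KRT6A (-1.71 ± 0.31, adjusted p = 0.0143). It was higher for CACNA1D (2.02 ± 0.22, adjusted p = 0.000578). These genes kept the call whichever of the 8 libraries was left out. LAMA4 had 63.5 and 53.6 CPM in GR3 cells, against 176 and 186 CPM in parental cells in vehicle (-1.61 ± 0.24, adjusted p = 0.000229). IER5 had 12.1 and 9.48 CPM in GR3 cells, against 89.7 and 76.98 CPM in parental cells under WZ4002 (-2.84 ± 0.14, adjusted p = 4.1e-09), and 28.5 and 25.8 CPM in GR3 cells, against 71.96 and 84.1 CPM in parental cells in vehicle (-1.49 ± 0.14, adjusted p = 4.13e-06).

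The other genes each lost the call at least without replicate 1 of vehicle-treated parental cells. The gap was lower under WZ4002 for CFLAR (-1.20 ± 0.21, adjusted p = 0.0143), NRARP (-2.08 ± 0.39, adjusted p = 0.0169), TGFBR2, a TGF-beta receptor (-1.25 ± 0.24, adjusted p = 0.0175), SOX9, a progenitor transcription factor (-1.39 ± 0.27, adjusted p = 0.0182), and SAMD9L (-2.12 ± 0.41, adjusted p = 0.0198). It was also lower for SEMA5B, a semaphorin (-2.99 ± 0.59, adjusted p = 0.0224), SESN1 (-1.39 ± 0.28, adjusted p = 0.0234), TNFSF10 (-2.62 ± 0.53, adjusted p = 0.0234) and EGFR (-1.69 ± 0.35, adjusted p = 0.0259). It was higher for SLC7A5 (2.75 ± 0.52, adjusted p = 0.0168). For PXDN (0.99 ± 0.23, adjusted p = 0.0443) and DLC1 (1.47 ± 0.34, adjusted p = 0.045) a negative gap was smaller under WZ4002. The PXDN gap was -7.71 in vehicle and -6.72 under WZ4002, and the DLC1 gap -2.75 and -1.28. GR3 cells were near 0 CPM for both genes in either treatment. DLC1 in parental cells had 6.90 and 5.51 CPM in vehicle, against 1.90 and 1.29 CPM under WZ4002.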

How the results depend on the processing

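The count of 4596 genes stayed between 4552 and 4734 under another scaling, a smaller pseudocount, no filter, limma-voom on recovered reads and a term for the table's 3 runs of columns, which was added after the data were seen. Fitted on the 2 groups alone it was 1724 (785 higher and 939 lower), with far fewer residual degrees of freedom. Leaving out 1 library gave 3166 to 3715 genes, with 1566 to 1808 higher and 1561 to 1943 lower. The vehicle comparison gave 1046 genes when fitted alone and 1827 to 3168 with a library left out (1827 and 1926 without parental replicates 1 and 2). GR3 minus GR2 gave 3258 to 3971 (lowest without GR2 replicate 2) and GR3 minus tolerant 2453 to 3902 (lowest without tolerant replicate 2). The response to WZ4002 in GR3 cells, 3406 genes, was 693 in the groups alone. The 200 genes whose gap differed became 84 with limma-voom, 9 in the groups alone, 124 at a pseudocount of 0.1, and 46 to 1059 with a library left out. The cause was not tested. No called difference of a named gene changed sign. Over all genes the lower calls outnumbered the higher ones, and this turned when GR3 replicate 1 of the treatment was left out, in the main and the vehicle comparison. Among the lists, leaving out 1 library turned the cholesterol synthesis calls and the sign of the mitosis median, as given with those lists. It also turned the sign of other list medians. Without parental replicate 1 under WZ4002 the median was -0.01 for ERK output and 0.01 for ERBB receptors and brakes. In the same fit it was 0.32 for checkpoint ligands and -0.15 for interferon-stimulated genes. Of the checks on named genes in the main comparison, 1508 kept their side of the threshold, 74 lost the call and 14 gained it.

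Same-numbered libraries of 20 of 55 pairs of groups had deviations correlated over 0.1 (range -0.46 to 0.63), with -0.15 for GR3 and parental cells under WZ4002, 0.33 for them in vehicle and 0.47 for GR3 and GR2 cells under WZ4002. Pairing by number was therefore mixed and not used in the fit. With a replicate block the main count was 4922 and the gap count 344. The crossed pairing, added after the data were seen, gave 4996 and 315 under its block. edgeR on recovered reads was not run. Depth limits the low genes, whose values near 0 rest on a few reads.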

Other observations

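Of 29 lysosomal genes 10 were lower and 2 higher in GR3 cells under WZ4002, with a median of -0.27. CTSD, a lysosomal protease, had 141 and 179.7 CPM in GR3 cells, against 482 and 509.6 CPM in parental cells (-1.63 ± 0.23, adjusted p = 7.96e-05). CTSL, another, had 31.99 and 32.8 CPM in GR3 cells, against 211 and 79.1 CPM in parental cells (-1.96 ± 0.32, adjusted p = 0.000283). NEU1, the lysosomal sialidase, had 27.8 and 30.3 CPM in GR3 cells, against 72.6 and 63.8 CPM in parental cells (-1.20 ± 0.22, adjusted p = 0.000857). All 3 lay below parental levels in both GR3 libraries. Of 25 NRF2 and glutathione genes 8 were higher and 1 lower, while in vehicle 0 were higher and 7 lower. The direct test of the gap between drug and vehicle called 2 of the 25, both higher. TXNRD1, thioredoxin reductase, had 1811 and 2117 CPM in GR3 cells, against 1074 and 836 CPM in parental cells (1.05 ± 0.16, adjusted p = 0.000185). GPX2, a glutathione peroxidase, was lower with 89.2 and 79.7 CPM in GR3 cells, against 232 and 136 CPM in parental cells (-1.07 ± 0.20, adjusted p = 0.000909). TXNRD1 was above parental levels and GPX2 below them in both GR3 libraries.

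TGF-beta genes split evenly, 5 of 22 higher and 5 lower. Over all genes 14.3% were higher and 15.4% lower, shares to set beside this count and those that follow. TGFBR2 had 10.7 and 10.2 CPM in GR3 cells, against 30.98 and 35.3 CPM in parental cells (-1.57 ± 0.17, adjusted p = 6.21e-06). SMAD3, which carries the receptor's signal, had 48.8 and 36.8 CPM in GR3 cells, against 104 and 125 CPM in parental cells (-1.41 ± 0.14, adjusted p = 3.66e-06). Both were lower in both GR3 libraries. TGFBR1, the partner receptor, went the other way with 81.3 and 100.3 CPM in GR3 cells, against 54.1 and 33.4 CPM in parental cells (1.07 ± 0.24, adjusted p = 0.00322), and without parental replicate 2 its difference was 0.73 (adjusted p = 0.0511). Of 12 checkpoint ligand genes 4 were lower and 1 higher. NT5E, the ectoenzyme CD73 that makes adenosine, had 31.5 and 52.7 CPM in GR3 cells, against 173 and 147 CPM in parental cells (-1.94 ± 0.27, adjusted p = 6.75e-05). VTCN1, the ligand B7-H4, had 27.1 and 15.4 CPM in GR3 cells, against 117 and 91.1 CPM in parental cells (-2.28 ± 0.53, adjusted p = 0.00416). Among 30 glycolysis and hypoxia genes 3 were higher and 1 lower. HK2, hexokinase 2, had 27.1 and 34.97 CPM in GR3 cells, against 151 and 163 CPM in parental cells (-2.31 ± 0.25, adjusted p = 7.16e-06), whereas ENO1, an enolase, had 828 and 875 CPM in GR3 cells, against 414 and 349.8 CPM in parental cells (1.16 ± 0.22, adjusted p = 0.00117). Of 12 integrins 2 were higher and 1 lower. ITGA6 had 63.4 and 57.8 CPM in GR3 cells, against 16.8 and 23.5 CPM in parental cells (1.56 ± 0.35, adjusted p = 0.00373). ITGB6 had 20.96 and 11.4 CPM in GR3 cells, against 104 and 41.9 CPM in parental cells (-2.03 ± 0.32, adjusted p = 0.000261). The groups were apart for each of these genes.

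Cholesterol synthesis genes depended on the parental pair. Of 22 tested 0 were higher and 4 lower, but without parental replicate 1 there were 7 higher and 0 lower with a median of 0.64, and without parental replicate 2 there were 0 higher and 7 lower with a median of -0.63. Fatty acid synthesis genes shared this, with 4 of 10 higher and 0 lower over all libraries, 8 higher and 0 lower without parental replicate 1, and 2 higher and 2 lower without parental replicate 2. FADS1, a fatty acid desaturase, had 227 and 284 CPM in GR3 cells, against 147 and 63.5 CPM in parental cells (1.38 ± 0.27, adjusted p = 0.00131), with unequal parental libraries.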
